A study of Saccharomyces cerevisiae with 8 samples.

Results

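Hexose phosphorylation and upper glycolysis in Saccharomyces cerevisiae were followed through the transcripts of 10 genes, HXK1, HXK2, GLK1, EMI2, PGI1, PFK1, PFK2, PFK26, PFK27 and FBP26. The members were taken by systematic name from the gene tables of the 8 libraries, and all 10 were found among 6170 gene identifiers. RNA was sequenced from 2 xylose-fermenting strains at 2 stages of batch fermentation in yeast nitrogen base medium, with 2 libraries from duplicate fermentations in each of the 4 groups. BSGX001 is a haploid derivative of CEN.PK 113-5D with the genotype Ru-XI (a xylose isomerase), XK (xylulokinase), gre3::PPP (pentose phosphate pathway genes inserted at GRE3) and cox4Δ, evolved on xylose. XH7 has the genotype pho13::XI, gre3::PPP, XK and 3δ::XI and was also evolved on xylose. The study describes XH7 as the derivative of a diploid fruit isolate, while its sample labels give CEN.PK 113-5D as the parent. By these labels both strains share a xylose isomerase, the xylulokinase, the insertion at GRE3 and the evolution step. The study also describes a PHO13 deletion in both, which the labels of BSGX001 do not list. Each strain is a single evolved line, so that strain, ploidy, ancestry and engineering cannot be told apart. In the X stage, cells were collected at 12 h of fermentation on 20 g/L xylose. In the GX stage, they were collected at 14 h of fermentation started with glucose and xylose, each at 20 g/L, in the xylose phase that follows glucose consumption.

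Glucose enters glycolysis by phosphorylation to glucose 6-phosphate, a step that yeast can make with the hexokinases Hxk1p and Hxk2p or the glucokinase Glk1p. The phosphoglucose isomerase Pgi1p interconverts glucose 6-phosphate and fructose 6-phosphate. Phosphofructokinase, built of the subunits Pfk1p and Pfk2p, then commits the sugar to cleavage. Its strong activator is made by the 6-phosphofructo-2-kinases Pfk26p and Pfk27p and removed by the phosphatase Fbp26p. Xylose takes another way in, since xylulose 5-phosphate passes through the non-oxidative pentose phosphate pathway and reaches glycolysis as fructose 6-phosphate and glyceraldehyde 3-phosphate, past the hexose kinases. HXK2 is known as the hexokinase gene of cells on glucose and its product also takes part in glucose repression, whereas HXK1 and GLK1 are known to be induced when glucose is absent.

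The libraries held 5279864 to 7675099 expected counts (estimated fragments per gene) over 6020 to 6100 detected genes. The 10 genes took 1.06% to 1.13% of the counts in BSGX001 at the X stage and 1.45% to 1.51% at the GX stage, against 2.01% to 2.03% and 1.80% to 2.14% in XH7. Every member passed the filter on low counts, and the smallest count of any member in any library was 300, for FBP26. COX4, deleted in BSGX001, had 0 counts in all of its libraries and 1186 to 2680 counts in those of XH7. GRE3 (145 to 492 counts over all libraries) and PHO13 (513 to 1041 counts in BSGX001 and 245 to 388 in XH7) kept reads, and since it is not given here which part of each gene an insertion replaced, these counts do not check the labels. The summed level of 6 haploid-specific genes was 615 to 701 CPM (counts scaled to the library total) in BSGX001 and 63.3 to 81.4 CPM in XH7. The BSGX001 X stage replicates lay farthest apart of the 4 pairs relative to counting noise (chi-square per degree of freedom of 37.6, against 4.09 to 19.1), which shows in the values of HXK2, GLK1, EMI2 and PFK26 below.

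Sequence upstream of 4 kinase genes is shown because these genes went different ways at the GX stage of BSGX001. The sequences are of the RefSeq R64 assembly, the S288C reference and not the strains themselves, and read 5′ to 3′ on the strand of the gene. Capitals mark the stress response element core AGGGG (the site of Msn2p and Msn4p) and the Mig1p cores GCGGGG and GTGGGG, on either strand. The windows of GLK1 (chrIII:50588-50887, plus strand), EMI2 (chrIV:1476427-1476726, minus strand) and HXK2 (chrVII:23685-23984, plus strand) run from 250 bases before the start codon to 50 bases into the coding sequence, and that of HXK1 (chrVI:255350-255649, minus strand) covers the bases 600 to 301 before the start codon, where its matches lie.
GLK1: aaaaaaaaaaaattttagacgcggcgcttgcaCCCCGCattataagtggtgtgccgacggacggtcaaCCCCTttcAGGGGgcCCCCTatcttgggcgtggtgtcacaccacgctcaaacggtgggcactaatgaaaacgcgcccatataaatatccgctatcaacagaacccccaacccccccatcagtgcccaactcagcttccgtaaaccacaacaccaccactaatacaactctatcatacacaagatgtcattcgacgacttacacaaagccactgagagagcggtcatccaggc
EMI2: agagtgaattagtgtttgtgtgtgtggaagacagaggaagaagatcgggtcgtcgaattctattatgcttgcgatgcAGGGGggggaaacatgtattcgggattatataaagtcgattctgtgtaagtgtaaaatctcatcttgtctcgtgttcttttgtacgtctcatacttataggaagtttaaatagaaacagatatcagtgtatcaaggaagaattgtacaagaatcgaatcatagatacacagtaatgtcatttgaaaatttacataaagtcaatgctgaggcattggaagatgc
HXK1: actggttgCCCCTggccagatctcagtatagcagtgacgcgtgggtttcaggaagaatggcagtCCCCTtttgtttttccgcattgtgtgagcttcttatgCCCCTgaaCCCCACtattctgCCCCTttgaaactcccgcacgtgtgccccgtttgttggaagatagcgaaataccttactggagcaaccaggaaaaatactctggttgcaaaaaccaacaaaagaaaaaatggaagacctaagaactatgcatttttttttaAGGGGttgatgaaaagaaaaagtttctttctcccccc
HXK2: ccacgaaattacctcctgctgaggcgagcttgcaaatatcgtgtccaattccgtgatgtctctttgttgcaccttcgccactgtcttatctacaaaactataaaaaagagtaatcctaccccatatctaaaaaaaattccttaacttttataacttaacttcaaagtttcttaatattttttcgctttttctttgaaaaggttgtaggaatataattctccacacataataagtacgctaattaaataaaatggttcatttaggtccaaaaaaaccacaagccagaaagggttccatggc
GLK1 carried 3 stress response element cores between 182 and 163 bases before the start codon and 1 GCGGGG match. HXK1 carried 5 cores farther upstream and 1 GTGGGG match, and EMI2 carried 1 core in its window. HXK2 had none of these motifs in its 300 bases.

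Over the windows of all 10 genes, AGGGG was found in 3 (GLK1, EMI2 and FBP26), against 21.56% of 6020 promoters in the genome. The sequence GCGGGG was found in 1 (GLK1) against 2.558%, GTGGGG in 0 against 4.385%, and CTTCC, the core bound by the glycolytic activator Gcr1p, in 5 against 46.3%. When the 600 bases before the start codon were searched, AGGGG was found upstream of HXK1, GLK1, EMI2, PFK26 and FBP26, against 39.6% of promoters, and HXK2 again held none of the 4 motifs. The GCGGGG core was then upstream of GLK1 and EMI2 (6.796% of promoters), the GTGGGG core upstream of HXK1 and PFK27 (10.67%), and CTTCC upstream of 9 members (72.68%). The 2 Mig1p cores and AGGGG cannot share a full match, but they share a run of G, and a match says only that these letters are present.

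**Figure D1:**
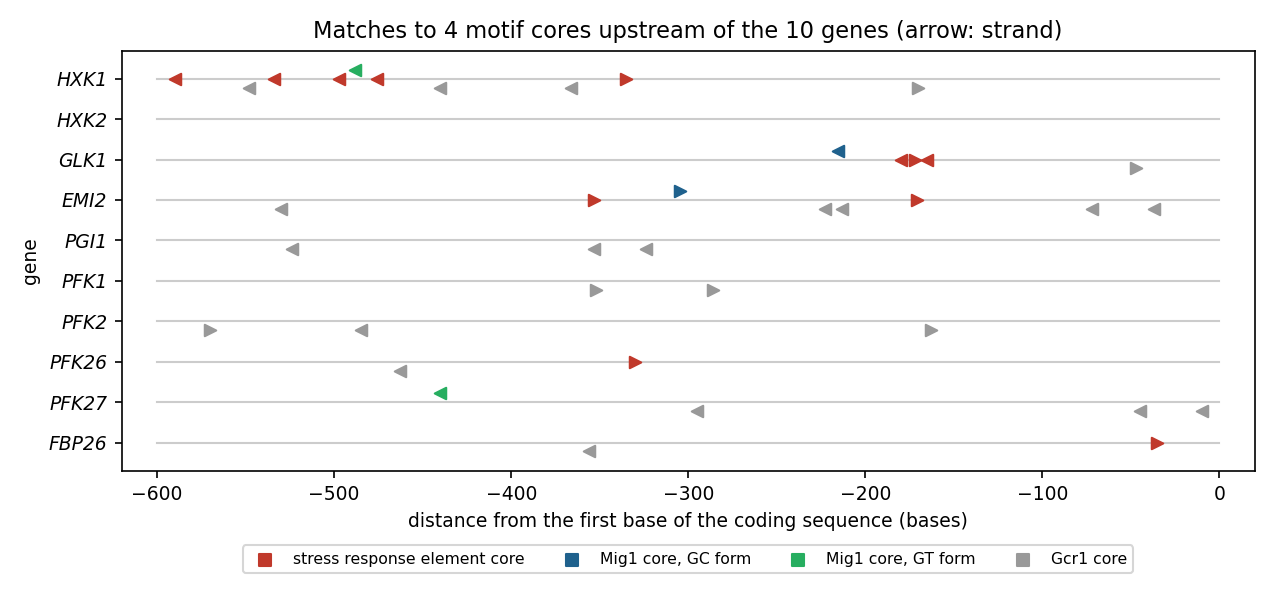
Positions of matches to the stress response element core, the GC and GT forms of the Mig1p core and the Gcr1p core in the 600 bases before the start codon of each gene; the x axis is the distance from the first coding base and arrows give the strand. The 5 stress response element cores of HXK1 lie beyond 300 bases, the 3 of GLK1 lie within 20 bases of each other, and HXK2 has no match.

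The hexose kinases were dominated by HXK1 in every library. In BSGX001 at the X stage HXK1 (hexokinase PI, YFR053C, chromosome VI, 253592 to 255049) had 3341 and 3254 FPKM (fragments scaled to gene length and library total), and at the GX stage 5924 and 5615 FPKM. In XH7 it had 8789 and 8721 FPKM at the X stage and 9149 and 7543 FPKM at the GX stage. Both XH7 groups thus lay above both BSGX001 groups, the BSGX001 stages did not overlap, and the FPKM of the XH7 stages did. As whole cultures were sequenced, a change in every cell and a change in the share of cells that express a gene cannot be told apart. In the fit to the counts HXK1 rose in BSGX001 by 0.79 ± 0.13 on the log2 scale (SE, n = 2 per group; edgeR quasi-likelihood F test, Benjamini-Hochberg adjusted p = 0.00145). In XH7 the change was −0.27 ± 0.13 (edgeR, adjusted p = 0.126). The XH7 value was not firm: it was −0.071 (adjusted p = 0.678) with library totals and −0.14 (adjusted p = 0.41) without XH7 GX stage replicate 2, but −0.31 (adjusted p = 0.0431) with the DESeq2 Wald test and −0.41 (adjusted p = 0.0303) without XH7 GX stage replicate 1.

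HXK2 (hexokinase PII, YGL253W, chromosome VII, 23935 to 25395) went the other way from HXK1 in BSGX001. It had 451 and 335 FPKM at the X stage and 201 and 195 FPKM at the GX stage of BSGX001, and 590 and 519 FPKM against 426 and 394 FPKM in XH7. All GX values lay below all X values of the same strain. HXK2 fell in BSGX001 (log2 change −1.01 ± 0.15, edgeR, adjusted p = 7.50e-04) and in XH7 (−0.63 ± 0.15, edgeR, adjusted p = 0.00643), and the difference between these changes was 0.37 ± 0.21 (edgeR, adjusted p = 0.203). That difference rested on the BSGX001 X stage libraries, at 0.090 (adjusted p = 0.713) without replicate 1 and 0.57 (adjusted p = 0.0248) without replicate 2.

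GLK1 (glucokinase, YCL040W, chromosome III, 50838 to 52340) was second to HXK1 in all 4 groups. It had 905 and 1349 FPKM at the X stage of BSGX001 and 1823 and 1783 FPKM at the GX stage. The corresponding values in XH7 were 1470 and 1496 FPKM and 2012 and 1773 FPKM. The GX values were above the X values in both strains. The rise in BSGX001 was 0.66 ± 0.18 (edgeR, adjusted p = 0.0131), but it missed the threshold when BSGX001 GX stage replicate 1 (0.65, adjusted p = 0.0693) or 2 (0.68, adjusted p = 0.0587) was left out, and was 0.43 (adjusted p = 0.0415) without BSGX001 X stage replicate 1. The change in XH7 was 0.15 ± 0.18 (edgeR, adjusted p = 0.507).

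EMI2 (YDR516C, chromosome IV, 1474974 to 1476476), the paralogue of GLK1 and itself a glucokinase gene, had 186 and 263 FPKM at the X stage of BSGX001 and 383 and 388 FPKM at the GX stage. In XH7 it had 945 and 953 FPKM and then 861 and 666 FPKM. Levels were higher after glucose in BSGX001 and lower after glucose in XH7, with no overlap between stages in either strain. The rise in BSGX001 was 0.77 ± 0.18 (edgeR, adjusted p = 0.00677). The fall in XH7 was −0.51 ± 0.18 (edgeR, adjusted p = 0.0366), and it missed the threshold when libraries were scaled by their totals (−0.32, adjusted p = 0.154), with limma on log2 FPKM (−0.33, adjusted p = 0.160 with a pseudocount of 1), and without any one of BSGX001 GX stage replicates 1 and 2, XH7 X stage replicates 1 and 2 or XH7 GX stage replicate 2 (adjusted p of 0.0616 to 0.194).

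**Figure D2:**
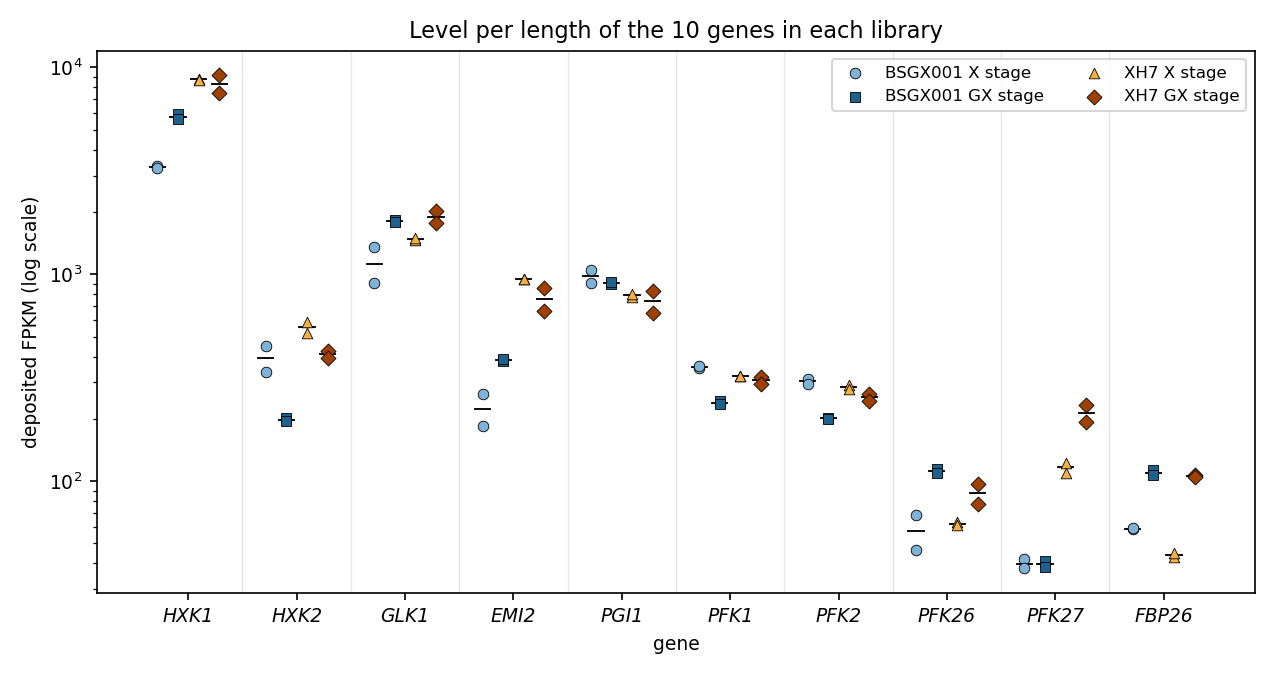
Deposited FPKM (log axis) of the 10 genes in each of the 8 libraries, by strain and stage; each point is 1 library and the short line is the mean of 2. HXK1 is the highest in every group, from 3254 FPKM upwards, and PFK27 separates the strains, at 38 to 42 FPKM in BSGX001 and 110 to 235 FPKM in XH7.

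The summed FPKM of the 4 kinase genes was 4883 and 5201 at the X stage of BSGX001, 8330 and 7981 at its GX stage, 11793 and 11690 at the X stage of XH7, and 12449 and 10376 at its GX stage. HXK1 made up 62.6% to 74.6% of this sum in the 8 libraries and GLK1 12.5% to 25.9%. The share of HXK2 went from 9.24% and 6.45% at the X stage of BSGX001 to 2.42% and 2.44% at the GX stage. In XH7 it went from 5.00% and 4.44% to 3.42% and 3.79%. The share of EMI2 was 3.80% to 5.05% in BSGX001 and 6.42% to 8.16% in XH7.

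**Figure D3:**
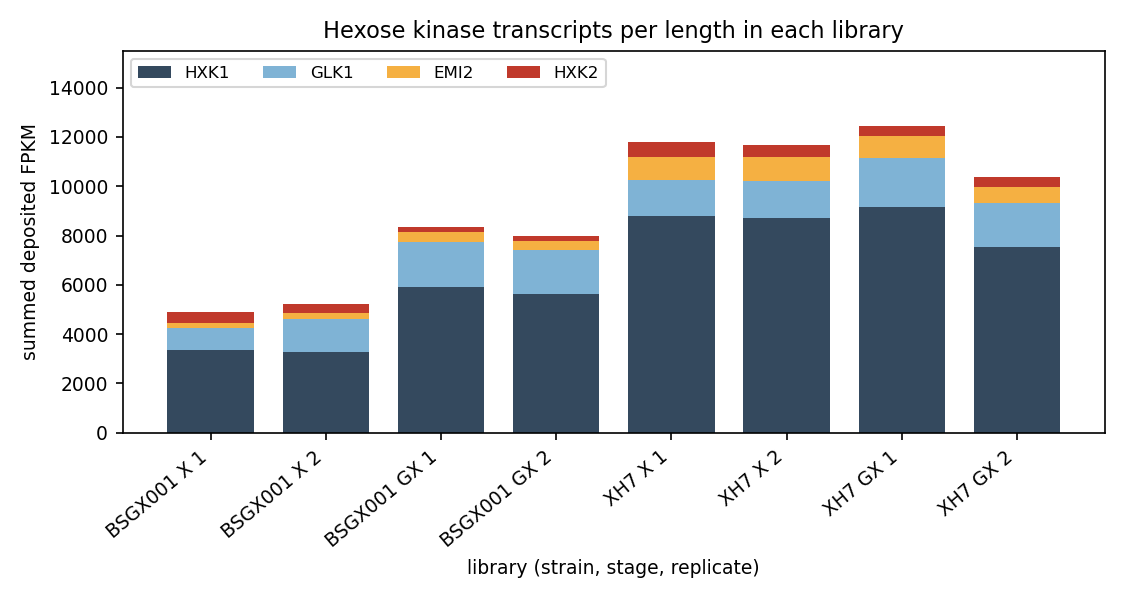
Deposited FPKM of HXK1, GLK1, EMI2 and HXK2 stacked for each library, with strain, stage and replicate on the x axis. The sum stands at about 4883 to 5201 FPKM in BSGX001 at the X stage and at 10376 FPKM or more in all XH7 libraries, and the HXK2 part is thinnest in BSGX001 at the GX stage.

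Set side by side per length, HXK1 was 7.40-fold and 9.70-fold above HXK2 in the X stage libraries of BSGX001 and 28.8-fold and 29.4-fold above it in the GX stage libraries. In XH7 the ratio was 14.9 and 16.8 at the X stage and 19.2 and 21.5 at the GX stage. The ratio was higher after glucose in all libraries of both strains, by 1.78 on the log2 scale in BSGX001 and 0.36 in XH7. An exact permutation test of the mean change, two-sided, with stages permuted within strains over 36 arrangements, gave p = 0.05556, which is the smallest p this design allows (0.2222 after adjustment over the 4 isozyme pairs). GLK1 was 4.60-fold to 5.13-fold above EMI2 in BSGX001, and in XH7 only 1.56-fold and 1.57-fold above it at the X stage and 2.34-fold and 2.66-fold at the GX stage. Its stage change was −0.10 in BSGX001 and 0.67 in XH7 (log2). The same exact test of the mean over both strains gave p = 0.3333 (adjusted 0.4444). As no pair can go below 0.05556 in this test, it cannot call any of them.

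Fragments could be confused between such relatives, so that the coding sequences were compared. HXK1 and HXK2 were identical at 77.85% of aligned bases with a longest identical run of 23 bases, GLK1 and EMI2 at 68.98% with a run of 15, and PFK1 and PFK2 at 65.6% with a run of 25. The expected counts of 8 members were whole numbers in all 8 libraries, as they would be if no fragment had been split between genes. Those of HXK1 and GLK1 were not whole, but became whole to within 0.02 in 8 of 8 libraries when the count of YFR052C-A was added to HXK1 and that of YCL042W to GLK1. Both are small reading frames named beside these genes, and they took 5.26% to 5.84% and 1.52% to 2.44% of the respective sums. With these counts added, the BSGX001 change was 0.79 for HXK1 and 0.67 for GLK1, and no call of a member changed.

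PGI1 (phosphoglucose isomerase, YBR196C, chromosome II, 612236 to 613900) had 907 and 1051 FPKM at the X stage and 895 and 915 FPKM at the GX stage of BSGX001, and 779 and 800 FPKM against 835 and 648 FPKM in XH7. The stages overlapped in FPKM in both strains, while by TMM-scaled CPM both GX libraries lay below both X libraries in each strain. Its change was −0.13 ± 0.14 in BSGX001 (edgeR, adjusted p = 0.484) and −0.29 ± 0.14 in XH7 (edgeR, adjusted p = 0.125). The XH7 value was −0.093 with library totals (adjusted p = 0.614). It was −0.48 without XH7 GX stage replicate 1 and −0.13 without replicate 2 of that group. In the fit reported, PGI1 was thus the member of the main chain with no called stage change in either strain.

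The phosphofructokinase subunit genes moved as a pair. PFK1 (alpha subunit, YGR240C, chromosome VII, 970771 to 973734) had 353 and 358 FPKM at the X stage of BSGX001 and 243 and 235 FPKM at the GX stage. PFK2 (beta subunit, YMR205C, chromosome XIII, 671887 to 674766) had 313 and 296 FPKM and then 203 and 200 FPKM. Both fell in BSGX001 with no overlap between stages, PFK1 by 0.59 ± 0.11 and PFK2 by 0.61 ± 0.11 on the log2 scale (edgeR, adjusted p = 0.0022 and 0.00167).

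In XH7 the corresponding FPKM of PFK1 were 324 and 321, then 320 and 294. Those of PFK2 were 290 and 280, then 264 and 245. GX values lay below X values for both genes. PFK2 fell (−0.36 ± 0.11, edgeR, adjusted p = 0.0195), while PFK1 changed by −0.27 ± 0.11 (edgeR, adjusted p = 0.0625). Neither value was firm. PFK1 passed with DESeq2 size factors (−0.31, adjusted p = 0.0396), upper-quartile scaling (−0.36, adjusted p = 0.0244) and the DESeq2 Wald test (−0.31, adjusted p = 0.0251). It was only −0.074 with library totals (adjusted p = 0.591) and with limma on log2 FPKM (adjusted p = 0.544 with a pseudocount of 1). PFK2 missed the threshold with library totals (−0.17, adjusted p = 0.219) and limma on log2 FPKM (−0.16, adjusted p = 0.184 with a pseudocount of 1). When a library was left out, PFK1 ranged from −0.33 to −0.22 and PFK2 from −0.42 to −0.32.

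The ratio of PFK1 to PFK2 stayed between 1.12 and 1.21 in the 8 libraries. It changed by 0.02 in BSGX001 and 0.09 in XH7 on the log2 scale (exact permutation test, p = 0.1667, adjusted 0.3333). Over the 8 libraries PFK1 and PFK2 were each other's nearest gene among all tested (Pearson r = 0.991 of log2 CPM, n = 8 libraries of 4 groups, a description).

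Of the genes that set the level of the phosphofructokinase activator, PFK26 and PFK27 encode 6-phosphofructo-2-kinases. PFK26 (YIL107C, chromosome IX, 163278 to 165761) had 46.3 and 68.6 FPKM at the X stage and 115 and 109 FPKM at the GX stage of BSGX001, and 63.4 and 61.3 FPKM against 97.1 and 77.4 FPKM in XH7. The GX values were above the X values in both strains. It rose in BSGX001 by 0.95 ± 0.18 (edgeR, adjusted p = 0.00221) and the change in XH7 was 0.29 ± 0.18 (edgeR, adjusted p = 0.205). The XH7 value was 0.48 (adjusted p = 0.0417) with library totals, and ranged from 0.11 without XH7 GX stage replicate 1 to 0.44 without replicate 2 of that group.

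Whereas PFK26 was called in BSGX001 only, PFK27 (YOL136C, chromosome XV, 67561 to 68754) was called in XH7 only. It had 41.9 and 38.0 FPKM at the X stage of BSGX001 and 41.0 and 38.3 FPKM at the GX stage, which overlapped. In XH7 it had 123 and 110 FPKM at the X stage and 194 and 235 FPKM at the GX stage. Its change was −0.03 ± 0.13 in BSGX001 (edgeR, adjusted p = 0.885) and a rise of 0.68 ± 0.12 in XH7 (edgeR, adjusted p = 0.00125). Per length, PFK26 was 1.11-fold and 1.81-fold above PFK27 at the X stage of BSGX001 and 2.79-fold and 2.84-fold above it at the GX stage. In XH7 the ratio was below 1 in all libraries, from 0.516 to 0.557 on xylose alone and from 0.330 to 0.502 after glucose. The strains went in different directions, and the exact test over both gave p = 0.6111.

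**Figure D4:**
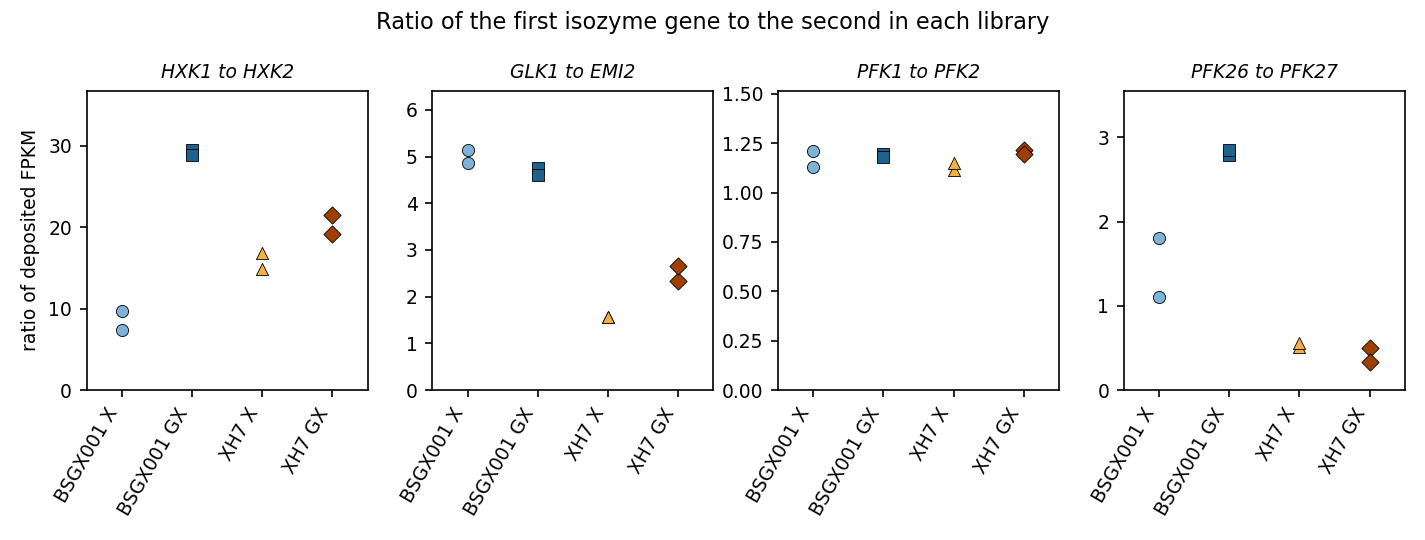
Ratio of the deposited FPKM of 4 isozyme or subunit pairs in each library, on linear axes that start at 0; each point is 1 library and columns are strain and stage. HXK1 to HXK2 is highest in BSGX001 at the GX stage (28.8 and 29.4), PFK1 to PFK2 stays between 1.12 and 1.21, and PFK26 to PFK27 is above 1 in BSGX001 and below 1 in XH7.

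FBP26 (the phosphatase that opposes PFK26 and PFK27, YJL155C, chromosome X, 129285 to 130643) was the member that rose in both strains. It had 58.8 and 59.2 FPKM at the X stage and 113 and 107 FPKM at the GX stage of BSGX001, and 43.0 and 45.1 FPKM against 107 and 104 FPKM in XH7. The stages were far apart relative to the replicates. The rise was 0.88 ± 0.09 in BSGX001 (edgeR, adjusted p = 1.25e-04) and 1.06 ± 0.09 in XH7 (edgeR, adjusted p = 4.31e-05), and these changes differed by 0.18 ± 0.13 (edgeR, adjusted p = 0.333).

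Counted together, 5 members rose in BSGX001 at the GX stage (HXK1, GLK1, EMI2, PFK26 and FBP26), 3 fell (HXK2, PFK1 and PFK2) and 2 were not called. In this comparison 47.7% of the 5921 genes tested were called, 23% higher and 24.7% lower, so that 8 called of 10 was above the share of all genes. The median log2 change of the members was 0.32 and that of all genes tested −0.02. In XH7, 2 members rose (PFK27 and FBP26), 3 fell (HXK2, EMI2 and PFK2) and 5 were not called, against 48.7% of all genes called (26.7% higher and 22% lower). There 5 called of 10 was close to the background, and the median of the members was −0.27 against 0.04 for all genes. Of the members called, 1 in BSGX001 (HXK2) and 1 in XH7 (FBP26) changed by at least 2-fold, against 8.8% and 12.4% of all genes.

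The 5 members that rose in BSGX001 were the same 5 that held an AGGGG match in the 600 bases before the start codon, and none of the other 5 members held one. Of all genes with a window, 52.95% of those that were higher at the GX stage of BSGX001 held AGGGG, against 31.78% of those that were lower and 37.71% of those not called. In XH7 the shares were 39.08%, 40.77% and 39.72%, and 1 of the 2 members that rose (FBP26) and 1 of the 3 that fell (EMI2) held the core. This is a description, for which no test was made, and the wider window was chosen with these results known. MSN4, which encodes a factor that binds this core, rose in BSGX001 (0.80 ± 0.14, edgeR, adjusted p = 0.00139), while its partner MSN2 fell (−0.64 ± 0.10, edgeR, adjusted p = 0.00116). In XH7 the change was 0.12 ± 0.13 for MSN4 and −0.32 ± 0.11 for MSN2 (edgeR, adjusted p = 0.469 and 0.0359).

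**Figure D5:**
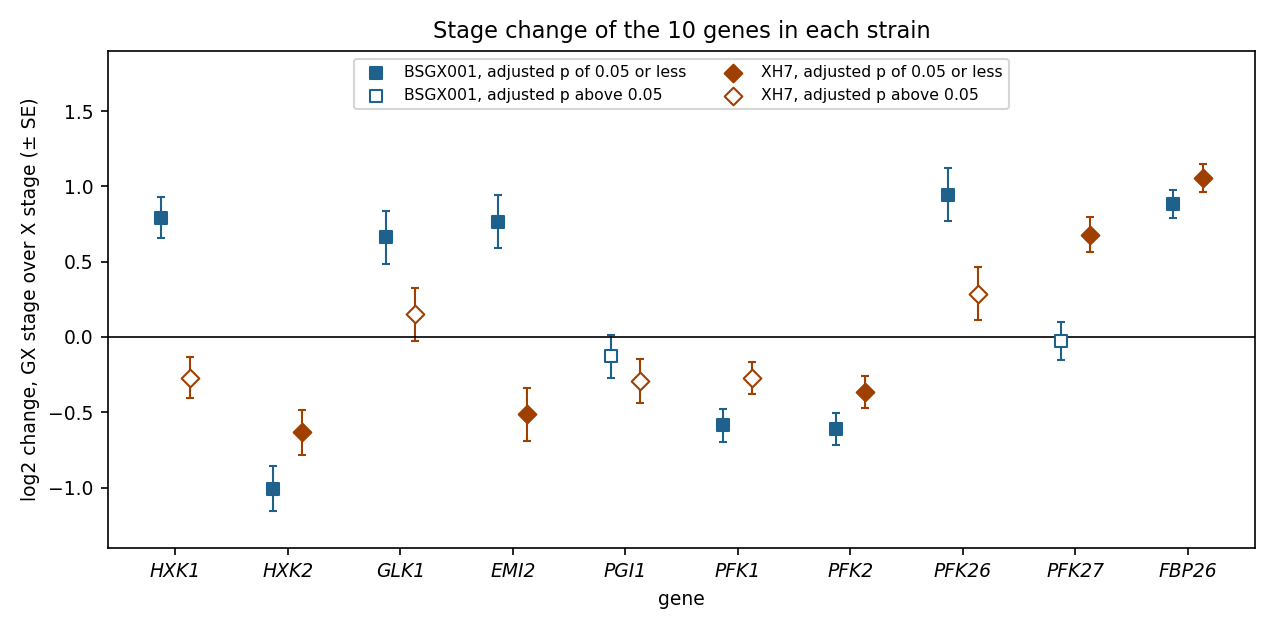
Log2 change from the X stage to the GX stage with its SE for the 10 genes in BSGX001 (squares) and XH7 (diamonds), from 1 edgeR fit to the 8 libraries; filled symbols have an adjusted p of 0.05 or less. HXK1 (0.79 against −0.27), EMI2 (0.77 against −0.51) and PFK27 (−0.03 against 0.68) differ between the strains by the test of the difference, and FBP26 rises in both.

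The stage change itself was compared between the strains as the interaction of strain and stage, XH7 minus BSGX001. It was called for 3 of the 10 members, against 29.6% of all genes (15.4% higher and 14.2% lower). The difference was −1.06 ± 0.19 for HXK1 (edgeR, adjusted p = 0.00374) and −1.28 ± 0.25 for EMI2 (edgeR, adjusted p = 0.0054). For PFK27 it was 0.70 ± 0.17 (edgeR, adjusted p = 0.0146), and this call was lost without BSGX001 X stage replicate 1 (0.58, adjusted p = 0.0542), BSGX001 GX stage replicate 2 (0.65, adjusted p = 0.0729) or XH7 X stage replicate 2 (0.61, adjusted p = 0.0743). The differences were −0.51 ± 0.25 for GLK1 and −0.66 ± 0.25 for PFK26 (edgeR, adjusted p = 0.149 and 0.0718). That of GLK1 was −0.33 with library totals (adjusted p = 0.316). For PFK1 and PFK2 the differences were 0.31 ± 0.15 and 0.25 ± 0.15 (edgeR, adjusted p = 0.147 and 0.239). With library totals these became 0.50 and 0.43 and passed the threshold (edgeR, adjusted p = 0.0295 and 0.0499). Both also passed with limma on log2 FPKM (adjusted p = 0.025 and 0.0422 with a pseudocount of 1). Without BSGX001 X stage replicate 2 the values for GLK1 and PFK26 were −0.83 and −0.97, and without replicate 1 of that group −0.30 and −0.45. GLK1 and PFK26 also lay far apart between the replicates of that group. The PFK26 difference was past the threshold with the DESeq2 Wald test (−0.71, adjusted p = 0.029) and with crossed replicate pairs in XH7 (−0.69, adjusted p = 0.0482). It was −0.83 without XH7 GX stage replicate 1.

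The strains also differed at the same stage. On xylose alone, 5 members were higher in XH7 than in BSGX001 and 0 were lower, against 55.5% of all genes called (26.5% higher and 29% lower), and 3 differed by at least 2-fold against 15.5% of all genes. EMI2 was higher by 2.38 ± 0.19 on the log2 scale, PFK27 by 1.84 ± 0.12 and HXK1 by 1.71 ± 0.14 (edgeR, adjusted p = 1.30e-05, 6.25e-06 and 1.54e-05). HXK2 was higher by 0.79 ± 0.15 and GLK1 by 0.69 ± 0.18 (edgeR, adjusted p = 0.00168 and 0.00849), and with library totals these values were 0.50 (adjusted p = 0.0154) and 0.41 (adjusted p = 0.0666), so that GLK1 missed the threshold, as it did with limma on log2 FPKM (0.42). No member was lower by edgeR with TMM scaling at an unadjusted p under 0.05 or with the DESeq2 Wald test. FBP26 was lower with library totals (−0.41, edgeR, adjusted p = 0.00428). It was also lower with limma on log2 FPKM (−0.41, adjusted p = 0.00469 with a pseudocount of 1). PFK26 was higher by 0.41 ± 0.18 (edgeR, adjusted p = 0.073), and by 0.45 with the DESeq2 Wald test (adjusted p = 0.0327). It was higher by only 0.125 with library totals (adjusted p = 0.554) and 0.14 with limma on log2 FPKM (adjusted p = 0.519 with a pseudocount of 1). The PFK26 value was 0.19 without BSGX001 X stage replicate 1 and 0.72 without replicate 2.

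After glucose, 6 members were higher in XH7 and 0 lower, against 66% of all genes called (33.4% higher and 32.6% lower), and 3 differed by at least 2-fold against 24% of all genes. PFK27 was higher by 2.54 ± 0.12, HXK2 by 1.16 ± 0.15 and EMI2 by 1.10 ± 0.18 (edgeR, adjusted p = 4.64e-07, 1.24e-04 and 4.82e-04). HXK1 was higher by 0.64 ± 0.13, PFK1 by 0.47 ± 0.11 and PFK2 by 0.45 ± 0.11 (edgeR, adjusted p = 0.00222, 0.00399 and 0.00475). No member was lower at an unadjusted p under 0.05 by edgeR, with DESeq2 or with limma. These comparisons share libraries with those of the stages and are not independent of them. The gene models carry the names of the laboratory strain CEN.PK113-7D, and whether fragments of XH7 mapped to them equally well was not tested.

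The rest of glycolysis gave the members their setting. Of 13 lower glycolysis genes listed, 12 were tested and ENO2 was not analysed here. Among all genes tested, 23% were higher and 24.7% lower at the GX stage in BSGX001, and 26.7% and 22% in XH7. In BSGX001 8 fell at the GX stage, with a median of −0.81, and TDH2 (glyceraldehyde 3-phosphate dehydrogenase, −2.07 ± 0.18) and FBA1 (aldolase, −1.36 ± 0.16) fell most (edgeR, adjusted p = 5.38e-05 and 2.16e-04). In XH7 9 fell, with a median of −0.83, led by FBA1 (−1.29 ± 0.16) and TDH2 (−1.20 ± 0.18; edgeR, adjusted p = 1.80e-04 and 5.54e-04). The pyruvate kinase gene PYK2 rose in both strains (0.32 ± 0.11 and 0.52 ± 0.11, edgeR, adjusted p = 0.0411 and 0.0045). The PYK2 call in BSGX001 was lost with upper-quartile scaling, with limma at a pseudocount of 0.1, with the BSGX001 samples alone and without BSGX001 X stage replicate 1 or GX stage replicate 1 or 2, each of which left 0 lower glycolysis genes higher, while 3 were higher without BSGX001 X stage replicate 2. PFK1, PFK2 and HXK2 thus moved in the direction of most lower glycolysis genes in BSGX001, and HXK1, GLK1 and EMI2 in the opposite direction.

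FBP1, which encodes fructose 1,6-bisphosphatase and opposes phosphofructokinase, had 42.4 to 55.0 FPKM at the X stage and 29.6 to 31.6 FPKM at the GX stage of BSGX001, and 16.7 to 18.8 FPKM against 168 to 231 FPKM in XH7. It fell in BSGX001 by 0.69 ± 0.18 (edgeR, adjusted p = 0.0128) and rose in XH7 by 3.29 ± 0.19 (edgeR, adjusted p = 8.10e-06), a difference of 3.98 ± 0.27.

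Of 5 genes whose enzymes use glucose 6-phosphate, 3 rose and 1 fell in BSGX001 by edgeR (against 23% and 24.7% of all genes). In XH7 0 rose and 4 fell by edgeR (against 26.7% and 22%), and also 0 were higher at an unadjusted p under 0.05, with DESeq2 and with limma. The 4 that fell in XH7 became 2 without XH7 GX stage replicate 2, and the 1 in BSGX001 became 2 without BSGX001 X stage replicate 1. The phosphoglucomutase gene PGM2 rose by 1.27 ± 0.29 in BSGX001 and fell by 0.99 ± 0.29 in XH7, and TPS1 (trehalose 6-phosphate synthase) rose by 0.74 ± 0.23 in BSGX001 (edgeR, adjusted p = 0.00587, 0.0177 and 0.0255). PGM1 fell in BSGX001 by 0.60 ± 0.11, and INO1 (inositol 3-phosphate synthase) changed by −2.51 ± 0.56 in XH7 (edgeR, adjusted p = 0.00226 and 0.00512). The kinase-like genes YLR446W and YLR345W, relatives of the kinase and activator families, rose in both strains, by 0.59 and 0.63 in BSGX001 and by 0.48 and 0.33 in XH7 (edgeR, adjusted p of 0.00717 and 8.60e-04, then 0.027 and 0.0208).

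Among 10 regulators of these genes, 4 rose and 3 fell in BSGX001 (against 23% and 24.7% of all genes). In XH7 3 rose and 4 fell (against 26.7% and 22%). The XH7 counts were not firm, with 1 higher and 2 lower when XH7 X stage replicate 1 or 2 or XH7 GX stage replicate 2 was left out, and 2 lower with library totals and with limma. MIG1, which encodes the glucose repressor that binds the GC and GT cores, rose in BSGX001 by 0.83 ± 0.12 (edgeR, adjusted p = 5.57e-04). GCR1, which encodes the activator of glycolytic genes, fell by 0.55 ± 0.09 in BSGX001 and by 1.01 ± 0.10 in XH7 (edgeR, adjusted p = 0.00122 and 5.62e-05). In XH7 its partner RAP1 fell by 0.71 ± 0.10, and REG1, a subunit of the phosphatase that restrains Snf1p, and TYE7, a second activator gene, rose by 0.72 ± 0.10 and 0.57 ± 0.16 (edgeR, adjusted p = 5.29e-04, 3.24e-04 and 0.0155). RAP1 also fell in BSGX001 (−0.53 ± 0.10) and REG1 also rose there (0.31 ± 0.10; edgeR, adjusted p = 0.00278 and 0.023). The change of TYE7 in BSGX001 was −0.33 ± 0.16 (edgeR, adjusted p = 0.109). These are transcript levels of the regulators, and their activity was not measured.

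Among the genes tested, those with the pattern over the 8 libraries most like HXK1 were YFR052C-A (r = 0.997), which shares its fragments as described above, AUS1 (0.991) and YPL257W (0.980). For HXK2 they were RPE1, which encodes an enzyme of the non-oxidative pentose phosphate pathway (0.995), UTR2 (0.992) and RPL16A (0.991). For GLK1 they were IML2, YER066C-A and URA8 (0.981 to 0.976), and for PFK27 RET1, YGL039W and COS10 (0.999 to 0.996). These Pearson correlations of log2 CPM rest on 4 groups of 2 libraries and are descriptions. EMI2 followed HXK1 (r = 0.978) more closely than its paralogue GLK1 did (r = 0.809).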

How the data were processed

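Per the labels, RNA was enriched with oligo(dT) beads and made into sequencing libraries, and the submitters' processing notes name build R64. The sources used here do not give the aligner, the counting program or its strand setting. For each of the 8 samples the authors deposited a table with an expected count per gene (estimated fragments, unscaled), an FPKM value (scaled by the authors to gene length and library total) and the gene length in bp. The other deposited tables repeat these FPKM values or hold the authors' own comparisons (mean FPKM, log2 ratio and a probability), and were not used.

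Groups were taken from the sample labels. Members were matched by systematic name, and all 10 had the same length in the files as in R64. Expected counts were rounded and tested in edgeR 4.0.16 (R 4.3.3; quasi-likelihood F test) in 1 fit of 4 groups, with TMM scaling (factors of 0.857 to 1.08), filterByExpr with a minimum count of 10 (5921 genes kept) and Benjamini-Hochberg adjustment over all of these genes. The threshold for a call was an adjusted p of 0.05. The labels call the samples of a group duplicates, and p-values measure the spread between these only. The test was checked on simulated data with 200 changed genes. FPKM are scaled to library totals, which relative to TMM shifts XH7 stage changes upwards (median over all genes 0.24 instead of 0.04) and XH7 to BSGX001 differences at the X stage downwards (−0.31 instead of −0.03).

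Isozyme ratios were taken from FPKM. Upstream sequences and coding sequence identity came from the R64 RefSeq assembly, searched and aligned with Biopython 1.88. All 10 members, up to 2 genes per other list and direction with the largest change in each strain, and the 3 genes most like HXK1, HXK2, GLK1 and PFK27 were named. The members, lists and tests were chosen with earlier results of these data known. PFK1 and EMI2 correlations and the link of motif to calls were added after the values were seen. Alternatives were other scalings (DESeq2 size factors, upper quartile, library totals), a stricter filter or none, the Wald test of DESeq2 1.42.0, limma 3.58.1 on log2 FPKM (pseudocounts of 1 and 0.1), a replicate block, leaving out each library, stricter limits and the 2 alternatives named below as chosen after seeing the data.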

Additional observations from a re-analysis of the deposited data

Results flagged for a closer look

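The change from the X stage to the GX stage differed between the strains for 3 of the 10 members by the interaction term of the edgeR fit, given as XH7 minus BSGX001. This share is close to that of all genes tested, of which 29.6% were called. The difference was −1.06 ± 0.19 on the log2 scale for HXK1 (edgeR, adjusted p = 0.00374), where both GX libraries were higher than both X libraries in BSGX001 and lower in XH7 by TMM-scaled CPM. It was −1.28 ± 0.25 for EMI2 (edgeR, adjusted p = 0.0054), with the same arrangement of libraries. For PFK27 it was 0.70 ± 0.17 (edgeR, adjusted p = 0.0146), with overlapping stages in BSGX001 and both GX libraries higher in XH7. The haploid-specific genes, at 615 to 701 CPM scaled to library totals in BSGX001 and 63.3 to 81.4 CPM in XH7, moved with the strains, and their part in these differences was not tested.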

How the results depend on the processing

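Of 920 values of single members' changes under alternatives, 852 kept their direction and side of the threshold, 26 passed it only under the alternative, 23 missed it only there and 19 changed sign, and 0 of the 19 belonged to a change called in the fit reported. Leaving out 1 library at a time, PFK27 in BSGX001 ranged from −0.097 (without BSGX001 X stage replicate 2) to 0.071 (without BSGX001 X stage replicate 1), PGI1 between strains at the X stage from −0.081 to 0.095, PGI1 in the interaction from −0.35 to 0.00423, and the change of the PFK1 to PFK2 ratio in BSGX001 from −0.028 to 0.075. The other sign changes were PGI1 between strains at the X stage (0.025 with DESeq2 size factors and 0.025 with the DESeq2 Wald test) and, with library totals and then limma at pseudocounts of 1 and 0.1, PFK1 (−0.13, −0.14 and −0.14) and PFK2 (−0.087, −0.092 and −0.092) between strains at the X stage, FBP26 between strains at the GX stage (−0.051, −0.057 and −0.057) and PGI1 in the interaction (0.020, 0.0069 and 0.0069). The cause was not tested.

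With a limit of 2-fold, 0 members were higher and 1 lower in BSGX001, 1 higher and 0 lower in XH7, 3 higher in XH7 than in BSGX001 at each stage, and 0 higher in the interaction. The 3 members that fell in XH7 became 1 with library totals, 5 with the DESeq2 Wald test, 1 and 1 with limma (pseudocounts of 1 and 0.1), 1 at an adjusted p of 0.01 and 1 to 5 when a library was left out. The 0 members lower in XH7 at the X stage became 1 with library totals and 1 and 1 with limma. The 1 member higher in the interaction became 3 with library totals, 3 and 3 with limma, 0 at an adjusted p of 0.01, and 0 to 2 when a library was left out, while the 2 lower became 2 to 4. With 2 libraries in a group, leaving out 1 leaves a lone library that is assumed to vary like the other groups.

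Same-numbered replicates did not deviate together (correlation of −0.03 in BSGX001 and −0.28 in XH7, 2 pairs each). The fit reported uses no pairing, but a single correlation per strain cannot settle whether the samples were paired. With the replicate block, 2514 of all genes were called in BSGX001 instead of 2825, 2626 in XH7 instead of 2882, and 1451 in the interaction instead of 1750. Of the called members, only PFK2 in XH7 missed the threshold under the block (−0.36, adjusted p = 0.0651). With the XH7 pairs crossed, an alternative chosen after seeing the data, 2883 genes were called in XH7 and 1823 in the interaction, where PFK26 was then called. Adding the counts of the overlapping reading frames to HXK1 and GLK1, also chosen after seeing the data, changed no member's call. The design of 2 libraries a group limits the isozyme ratios, whose exact test cannot go below 0.05556.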
